A study of Mus musculus with 21 samples.

Results

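The FGF system of the pharyngeal arches and the developing outer ear was followed over 38 genes, chosen by symbol among the 24594 genes of 2 mouse RNA-seq count tables. They comprise 22 Fgf genes, 5 receptor genes (Fgfr1 to Fgfr4 and Fgfrl1) and 11 feedback or response genes (Spry1 to Spry4, Spred1 to Spred3, Dusp6, Etv1, Etv4 and Etv5). The genotype series compared wild-type with HIRE1del/del embryos, which lack on both chromosomes a distal region outside the Hoxa cluster, and took the pharyngeal arches 2 and 3 (PA2, PA3) by dissection at E10.5 (E for embryonic day). For these 12 libraries no sorting is stated. In the stage series, the RFP-positive descendants of the neural crest, marked permanently through Wnt1::Cre;ROSA-RFP, were sorted from E10.5 PA2 and from the E12.5 and E14.5 pinna, the external ear (9 libraries). The labels call the cells of both series cranial neural crest. All stage embryos carried the driver and the reporter, and their labels give the genotype as WT. Each of the 7 groups had 3 libraries. Tissue was digested with trypsin at E10.5 and E12.5 and with papain at E14.5. The step from E10.5 to E12.5 thus changed stage and site together under 1 enzyme, and the step from E12.5 to E14.5 changed stage and enzyme together within the pinna, and neither pair can be told apart.

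Fibroblast growth factors are secreted ligands that bind receptor tyrosine kinases together with heparan sulfate and switch on the Ras-ERK cascade. Etv transcription factors, Dusp6, Sprouty and Spred are induced by the pathway and, apart from the Etv factors, dampen it, which is why their RNA is widely read as a response. In the arches, FGFs from the epithelium are known to keep crest mesenchyme alive and patterned. The Fgf11 to Fgf14 group differs from the other Fgf genes, because its products stay inside the cell and act on sodium channels.

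Totals were 25804446 to 32210131 counts per library in the genotype table and 25814151 to 49058941 in the stage table, the deepest libraries being those of E14.5. Hoxa2, reported here as the check of the deletion, was at 73.4 to 84.2 CPM (counts scaled to a common library total) in wild-type PA2 and at 4.75 to 7.09 CPM in HIRE1del/del PA2. In PA3 it was at 56.1 to 65.1 CPM against 22.1 to 25.6 CPM. The tables were normalised separately and are not tested against each other. Of the 38 members, 32 genotype and 28 stage rows passed the filter (1 CPM or more in 2 libraries or more). A gene that passes because of 1 high group alone is bound to differ, so that counts over the members that passed are descriptions. Genes were called at an adjusted p under 0.05 (edgeR quasi-likelihood test, Benjamini-Hochberg over all genes tested).

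The 250 bases upstream of the RefSeq start of 4 genes are shown, because Dusp6, Spry1 and Spry2 are feedback genes whose stage courses differed and Fgf7 is the ligand with the highest RPKM (CPM per kilobase of exon) at E14.5. Capitals mark CGGAAG on either strand (CTTCCG on the strand printed), a sequence of the kind that ETS factors such as the Etv proteins bind. Windows are given 5′ to 3′ on the strand of the gene in GRCm38.p6, and in each the RefSeq start lay within 5 bases of the gene start in GENCODE M21.
Dusp6, chr10:99262981-99263230, plus strand: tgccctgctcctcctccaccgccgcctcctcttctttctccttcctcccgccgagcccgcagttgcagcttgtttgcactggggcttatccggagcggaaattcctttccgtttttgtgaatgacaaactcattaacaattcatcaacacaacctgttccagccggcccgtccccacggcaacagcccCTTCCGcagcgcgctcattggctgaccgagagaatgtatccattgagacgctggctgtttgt
Spry1, chr3:37639697-37639946, plus strand: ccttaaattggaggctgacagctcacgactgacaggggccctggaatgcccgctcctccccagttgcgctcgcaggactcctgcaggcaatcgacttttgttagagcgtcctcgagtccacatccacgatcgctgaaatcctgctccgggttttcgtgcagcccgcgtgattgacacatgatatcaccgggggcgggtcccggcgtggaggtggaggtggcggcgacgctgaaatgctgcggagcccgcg
Spry2, chr14:105896820-105897069, minus strand: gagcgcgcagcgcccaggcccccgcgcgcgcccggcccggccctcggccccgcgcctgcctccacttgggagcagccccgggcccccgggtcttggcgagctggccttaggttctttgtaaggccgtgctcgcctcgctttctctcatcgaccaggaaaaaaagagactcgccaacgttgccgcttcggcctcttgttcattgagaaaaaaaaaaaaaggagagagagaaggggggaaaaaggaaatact
Fgf7, chr2:126034408-126034657, plus strand: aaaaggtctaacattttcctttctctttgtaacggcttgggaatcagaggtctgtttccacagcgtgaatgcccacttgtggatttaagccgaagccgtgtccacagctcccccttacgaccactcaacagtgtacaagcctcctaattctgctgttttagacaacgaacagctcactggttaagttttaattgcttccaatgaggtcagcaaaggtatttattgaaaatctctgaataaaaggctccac
The Dusp6 window held 1 copy of CGGAAG, and the windows of Spry1, Spry2 and Fgf7 held none. Neither GGAAGT, which can overlap it, nor TGANTCA, the AP-1 type of site, was found on either strand in these 4 windows. Over all 32851 RefSeq windows of this length, 13.6% held CGGAAG, 19.7% GGAAGT and 6.75% TGANTCA. Usable windows were found for 28 of the 38 members, of which 8 matched the GENCODE start. Of these 8, 2 held CGGAAG, those of Dusp6 and of Fgf23, a gene that did not pass the filter in either series. These matches are letters in a window and not evidence of binding.

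The highest-ranking members were receptors and feedback genes in every group, joined at E14.5 by the ligands Fgf7 and Fgf10. Fgf7 already ranked 7 at E12.5, with 8.51 RPKM. Not all receptors and feedback genes were abundant. In sorted PA2 at E10.5 Fgfr4 was at 0.123 RPKM and Etv1 at 0.652 RPKM, below Fgf15 at 4.93 RPKM. On a per-length scale (RPKM, the CPM divided by the exonic length in kilobases), Dusp6, a phosphatase that inactivates ERK, led in sorted PA2 at E10.5 with 49.2 ± 6.07 RPKM (SD, n = 3), followed by Fgfr1 with 42.1 ± 2.69. The libraries of Dusp6 (42.4 to 54.2 RPKM) and Fgfr1 (39 to 44) overlapped. At E12.5 Fgfr1 led with 43.9 ± 2.99 RPKM, ahead of Spry2 (32.5 ± 1.63) and Spred1 (29.4 ± 5.24), and the last pair overlapped. At E14.5 Fgfr1 stood at 67.9 ± 4.48 RPKM, Spred1 at 54.6 ± 5.96, Spry2 at 53.6 ± 2.95 and the ligand Fgf7 at 42.2 ± 3.73 RPKM. Fgf10, the other abundant ligand, was at 29.8 ± 1.55 RPKM, overlapping Dusp6 at 30.6 ± 1.78.

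Among the 4 kinase receptors, Fgfr1 and Fgfr2 accounted for nearly all of the RPKM in every group. In sorted crest the share of Fgfr1 in the summed receptor RPKM was 59.2 to 62.3% at E10.5, 67.2 to 67.9% at E12.5 and 71.5 to 74.2% at E14.5. Fgfr2 held 36.4 to 39.3%, 31 to 31.6% and 24.8 to 27.4%. The 3 stages did not overlap in either share. In dissected wild-type PA2 the order was the other way round, with Fgfr1 at 43.1 to 45.8% and Fgfr2 at 50.9 to 53.8%. Fgfr3 never exceeded 4.93% of a library's receptor RPKM, and Fgfr4 never exceeded 0.948%. Fgfr2 shares 314 exon bases with Ctbp2 on the same strand, where reads cannot be assigned. Fgfr1 shares 164 with Gm16159 on the opposite strand, which averaged 193 counts per genotype library and 0 per stage library. Whether strand was handled alike in both tables is not known.

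Several ligands that were present in dissected PA2 were at or near 0 in crest sorted from the same arch and stage. Fgf8, an epithelial ligand that patterns the arches, had 106, 88 and 79 counts in the wild-type dissected libraries and 1, 2 and 1 counts in the sorted ones. Fgf20 had 32, 31 and 65 counts against 1, 1 and 3, and Fgf4 had 25, 9 and 7 against 0, 1 and 0. Fgf9 was at 5.05 to 5.23 CPM in the dissected and 0.446 to 0.803 CPM in the sorted libraries. The mesenchymal ligand Fgf7 overlapped (0.893 to 2.13 and 1.65 to 2.04 CPM). Fgf10, also mesenchymal, was lower in the sorted libraries, at 10.4 to 11.8 CPM dissected and 3.26 to 3.75 CPM sorted. Fgf2, which overlaps Nudt6 on the opposite strand, had 16 to 47 counts dissected and 0 sorted. Fgf15 went the other way, at 4.88 to 5.42 CPM dissected and 9.85 to 11 CPM sorted, as did Fgfr1 (178 to 196 CPM and 319 to 359 CPM), to which the limit on strand applies. These values stand side by side without a test. Epithelial markers (8 genes, among them Epcam and Krt8) summed to 258 to 288 CPM in dissected wild-type PA2 and to 9.83 to 12 CPM in sorted PA2, where Krt14 had 0 counts in at least 1 library. The part of these cells in the ligand levels was not tested.

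**Figure D1:**
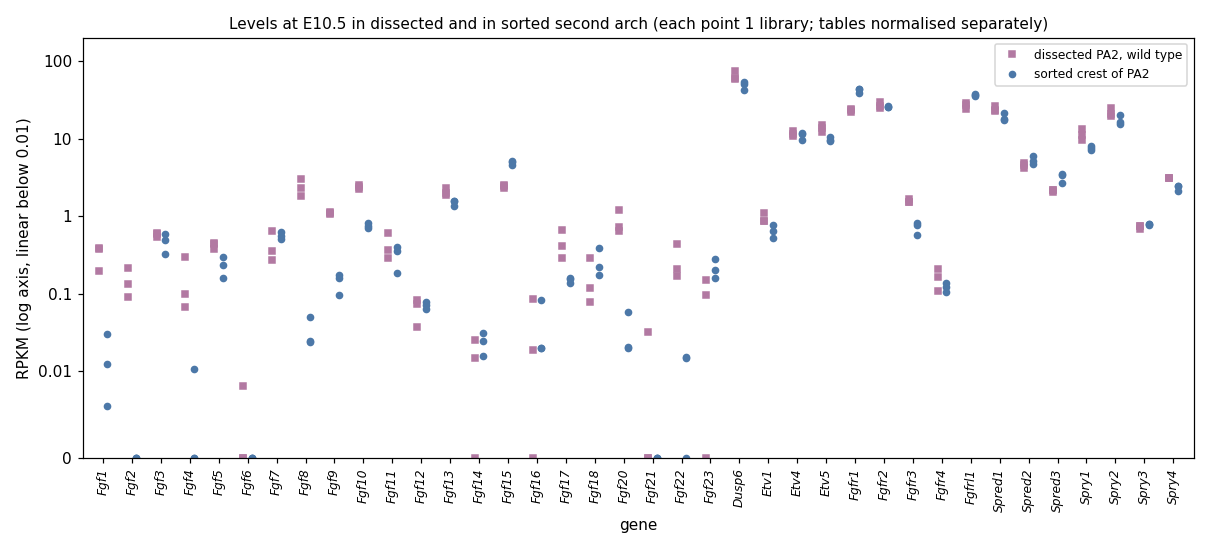
Levels of the 38 genes at E10.5 in PA2, in RPKM on a log axis that is linear below 0.01, with each point 1 library (squares, dissected wild-type PA2; circles, crest cells sorted from PA2). Fgf8 lies between 79 and 106 counts in the dissected libraries and at 1 or 2 counts in the sorted ones, while Fgf15 and Fgfr1 are higher in the sorted libraries.

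Between PA2 at E10.5 and the pinna at E12.5, mesenchymal ligands rose in the crest, and of the response genes some fell and others rose. Of the 28 members tested, 11 were higher and 11 lower at E12.5, and 6 did not pass the test. Over all 13438 genes, 35% were higher and 33.7% lower. With a log2 fold change of 1 or more in size, 8 members were higher (14.8% of all genes) and 5 lower (6.79%). The median log2 fold change was 0.21 over the members and 0.01 over all genes.

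Fgf7 and Fgf10, mesenchymal ligands that signal to epithelium through Fgfr2, both rose. Fgf7 was at 2.04, 1.65 and 1.8 CPM at E10.5 and at 25.4, 30.2 and 27.3 CPM at E12.5, 15.1-fold higher (log2 fold change 3.92, SE 0.12, adjusted p = 8.68e-10). Fgf10 went from 3.75, 3.26 and 3.5 CPM to 15.3, 17.9 and 24.3 CPM, 5.47-fold higher (adjusted p = 2e-07). The stages did not overlap for either gene. Fgf18, a ligand of the developing skeleton, rose 12.6-fold from 0.206 to 0.458 CPM to 3.6 to 4.21 CPM (adjusted p = 2.06e-07).

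The intracellular genes moved apart. Fgf11 rose 3.7-fold (adjusted p = 2.68e-05) and Fgf12 3.75-fold (7.1e-05), whereas Fgf13, the most abundant of them at E10.5, fell from 5.49 to 6.39 CPM to 3.05 to 3.89 CPM (1.73-fold lower, adjusted p = 0.000981). Fgf14 had 2, 3 and 4 counts at E10.5 and 47, 48 and 86 counts at E12.5. The ratio of its summed counts, scaled by depth, was 20.7 (95% counting interval 10.7 to 46.1, adjusted p = 1.4e-05).

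Fgf15, the mouse counterpart of human FGF19, fell to a few counts. It had 317, 287 and 336 counts at E10.5, 3, 1 and 1 counts at E12.5 and 0, 3 and 0 counts at E14.5. The libraries of E10.5 stood far above all the others. Its summed counts were 182-fold lower at E12.5 (counting interval 77.8 to 563, adjusted p = 8.38e-08) and 485-fold lower at E14.5 (166 to 2360, adjusted p = 9.12e-09). Without E12.5 replicate 1 the former ratio was 315. All 3 counts of E14.5 came from replicate 2, and without it E14.5 was at least 159-fold lower. Fgf15 shares 761 exon bases with the antisense gene Gm26793. Fgf3, an arch epithelial and otic ligand, fell from 34, 22 and 42 counts to 4, 1 and 2 counts, 13.6-fold lower (6.34 to 34.6, adjusted p = 6.67e-05) and 21.9-fold lower without E12.5 replicate 1. Fgf5 had 12, 17 and 23 counts at E10.5 and 0 counts in all 6 pinna libraries. It did not pass the filter, and was at least 5.18-fold lower at E12.5, set against a floor of 3 counts in a single library. Counting intervals and floors cover counting error only. Fgf15 and Fgf3 passed the filter through E10.5 alone. They were thus bound to lie lower at the later stages, and the sizes and adjusted p-values of these falls are descriptions.

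The response genes did not move as 1 block between E10.5 and E12.5. Etv4 fell from 36.9, 35.7 and 29.5 CPM to 3.27, 4.08 and 5.17 CPM, 8.13-fold lower (adjusted p = 1.37e-06). Dusp6 fell from 170, 159 and 133 CPM to 62.8, 73.4 and 66.7 CPM, 2.28-fold lower (adjusted p = 7.9e-07). Etv5 was 2.16-fold lower (adjusted p = 8.92e-07) and Spry1 1.97-fold lower (2.13e-06). In the same cells Spry2 went from 32.6, 34.6 and 41.9 CPM to 64.1, 70.7 and 68.8 CPM, 1.87-fold higher (adjusted p = 5.47e-06). Spry4 was 2.11-fold higher (9.18e-07) and Spred1 1.55-fold higher (0.000927). Thus 5 of the 11 feedback genes fell (Spry3, at 1.57-fold, being the other one), 3 rose, and Etv1, Spred2 and Spred3 did not pass the test. Over all genes, 33.7% fell and 35% rose at this step, so that mixed directions were common.

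Of the receptors, Fgfr1 did not pass over this interval (log2 fold change 0.06, 95% interval -0.10 to 0.22, adjusted p = 0.49). Fgfr2 was 1.27-fold lower (adjusted p = 0.000154) and Fgfr4 1.97-fold higher (0.0103). Fgfrl1, which binds FGFs without a kinase domain, was 1.83-fold lower (4.78e-06). Fgfr3 was 1.43-fold lower with overlapping libraries (adjusted p = 0.0329), and the call did not hold without E10.5 replicate 1 or 3, without E12.5 replicate 2 or 3, or with scaling by library totals.

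From E12.5 to E14.5 the members rose nearly throughout. Of the 28 tested, 22 were higher and 3 lower, where 32.6% of all genes were higher and 33.1% lower. With a log2 fold change of 1 or more in size, 16 were higher (12.2% of all genes) and 1, Spry3, lower (7.53%). The median log2 fold change was 1.20 over the members and -0.01 over all genes. The comparison shares its E12.5 libraries with the one before.

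Fgf9 and Fgf2 appeared in this interval. Fgf9, a ligand that signals from epithelium to mesenchyme in other organs, was at 0.446, 1.11 and 0.952 CPM at E12.5 and at 59.3, 61.3 and 62.2 CPM at E14.5. The 3 libraries of E14.5 lay within 3 CPM of each other, and the gene was 71.6-fold higher (log2 fold change 6.16, SE 0.19, adjusted p = 1.75e-09). Between E10.5 and E12.5 Fgf9 had not passed the test (adjusted p = 0.334). Fgf2, a ligand without a classical secretion signal, had 0 counts in all 3 libraries of E10.5, 2, 1 and 4 counts at E12.5, and 452, 1320 and 725 counts at E14.5. Its summed counts rose 223-fold (counting interval 108 to 556, adjusted p = 3.18e-06; 345-fold without E12.5 replicate 3), and E14.5 was at least 173-fold higher than E10.5. The E14.5 libraries of Fgf2 differed among themselves, at 9.96, 27.8 and 15.9 CPM. Without the E14.5 libraries neither Fgf2 nor Fgf9 would have passed the filter. Both were thus bound to lie higher at E14.5, and the sizes and adjusted p-values of these rises are descriptions. Nudt6, which shares 640 exon bases with Fgf2 on the opposite strand, averaged 2.9 counts per stage library.

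Fgf7 and Fgf10 rose further. Fgf7 reached 128, 132 and 151 CPM at E14.5, 4.96-fold above E12.5 (adjusted p = 5.48e-09), and Fgf10 reached 141, 142 and 129 CPM, 7.17-fold above (2.18e-08). Against E10.5, E14.5 was 74.8-fold higher for Fgf7 and 39.2-fold higher for Fgf10. Fgf18 was 2.02-fold higher (adjusted p = 0.000378), Fgf11 3.64-fold (8.51e-06), Fgf12 7.69-fold (3.5e-07) and Fgf14 2.45-fold (0.0038) at E14.5 than at E12.5. Fgf21, an endocrine ligand, was seen at 0 counts in the 3 libraries of E10.5, at 0, 7 and 4 counts at E12.5 and at 40, 62 and 54 counts at E14.5. Having passed the filter through E14.5 alone, it was bound to lie higher there, and was at least 10.9-fold higher at E14.5 than at E10.5. Its call between E10.5 and E12.5 (adjusted p = 0.0192) was lost without E12.5 replicate 2. Fgf3 rose slightly, from 7 to 36 counts in all (ratio 3.22, counting interval 1.41 to 8.57, adjusted p = 0.0287), a call lost without E12.5 replicate 2 or 3 or E14.5 replicate 1. Without E12.5 replicate 1 the ratio was 5.19.

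**Figure D2:**
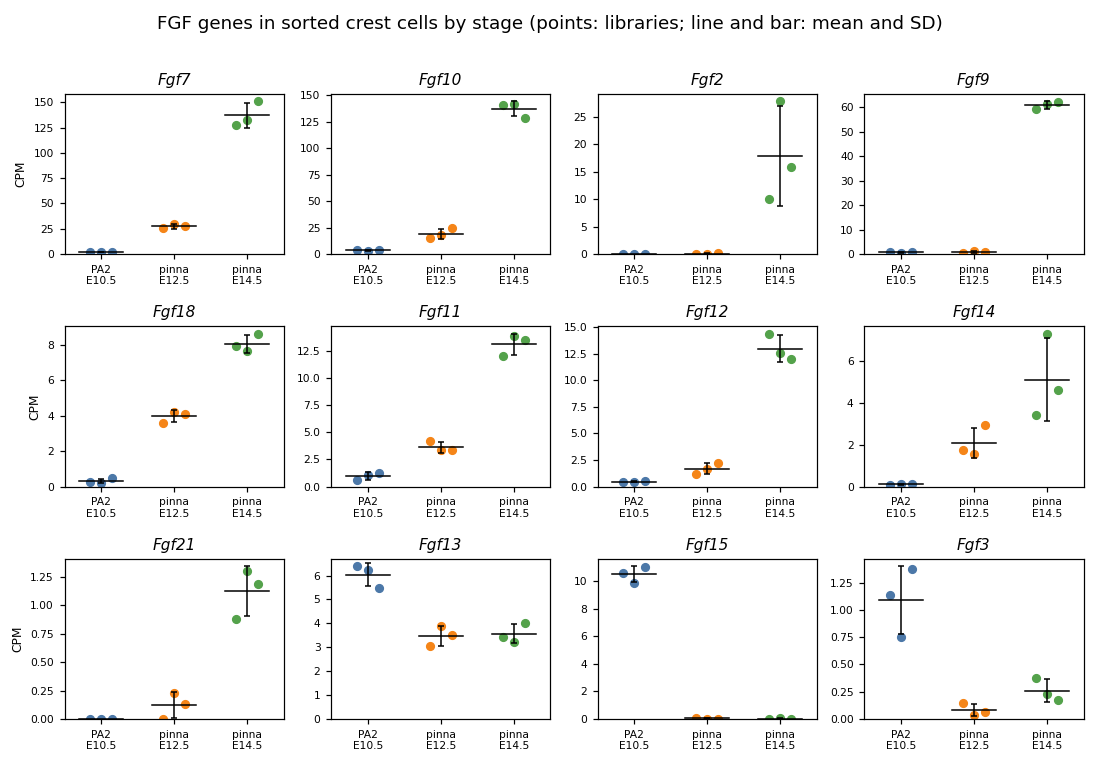
Expression of the 12 Fgf genes tested in sorted crest cells by stage, in CPM on a linear axis from 0, with each point 1 library and the line and bar the mean and SD of 3 libraries. Fgf2 and Fgf9 are near 0 until E12.5, Fgf7 and Fgf10 rise at both steps to 128 to 151 CPM, and Fgf15 and Fgf3 are highest at E10.5.

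Of the feedback genes, 9 rose and 2 fell between E12.5 and E14.5 (32.6% and 33.1% of all genes). Spry1 went from 11.4, 10.1 and 12.2 CPM to 45.8, 43.3 and 47.3 CPM (4.05-fold, adjusted p = 1.13e-08). Spry4 went from 22.1 to 25.3 CPM to 78.8 to 87.7 CPM (3.61-fold, adjusted p = 1.28e-08). Etv5 was 3.25-fold higher (4.26e-08), Etv1 3.1-fold (3.72e-06), Etv4 2.31-fold (0.00164), Spred1 1.86-fold (8.73e-05), Spry2 1.65-fold (3e-05), Dusp6 1.42-fold (0.00063) and Spred2 1.35-fold (0.00572). Spry3 was 2.23-fold lower (0.000217) and Spred3 1.75-fold lower (0.000196). Genes that had dropped at E12.5 therefore differed in how far they came back. Etv5 and Spry1 ended above E10.5 (1.5-fold and 2.06-fold), Dusp6 stayed 1.61-fold and Etv4 3.53-fold below it, each with libraries that did not overlap between E10.5 and E14.5.

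Fgfr1 rose 1.55-fold (adjusted p = 2.04e-05), from 334 to 383 CPM to 515 to 586 CPM, and Fgfr2 1.2-fold (0.00138). Fgfr4, which passed the filter through E14.5 alone, rose 2.28-fold from a low level (0.00139) and Fgfrl1 fell 1.52-fold (0.000104). Fgfr3 did not pass the test (log2 fold change -0.33, 95% interval -0.76 to 0.10, adjusted p = 0.153). Over the whole interval from E10.5 to E14.5, 18 of the 28 members were higher and 9 lower (42% and 40% of all genes), and with a log2 fold change of 1 or more in size 15 and 5 (23.1% and 16.2%). Fgfr2 alone did not pass (adjusted p = 0.154). This comparison shares libraries with both of the others.

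Fgf18 had 0.268, 0.206 and 0.458 CPM at E10.5, 3.6, 4.21 and 4.11 CPM at E12.5 and 7.91, 7.63 and 8.61 CPM at E14.5. Fgf11 had 0.569, 1.1 and 1.24 CPM at E10.5, 4.16, 3.33 and 3.33 CPM at E12.5 and 12, 13.8 and 13.5 CPM at E14.5. Fgf12 had 0.401, 0.446 and 0.49 CPM at E10.5, 1.15, 1.67 and 2.21 CPM at E12.5 and 14.4, 12.53 and 12 CPM at E14.5. The 3 stages did not overlap for any of these genes. Fgf13 had 6.39, 6.25 and 5.49 CPM at E10.5, 3.05, 3.89 and 3.5 CPM at E12.5 and 3.44, 3.24 and 4.01 CPM at E14.5. Fgf14, given in counts above for the earlier stages, had 3.41, 7.3 and 4.6 CPM at E14.5. Fgf3 had 0.374, 0.231 and 0.175 CPM at E14.5. For Fgf13 the E10.5 libraries stood above the others and the later stages overlapped.

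Of the ETS factors, Etv1 was at 10.4, 8.68 and 6.93 CPM at E10.5, 8.36, 11.3 and 9.72 CPM at E12.5 and 28, 28.8 and 34.5 CPM at E14.5. Etv5 was at 42.6, 39 and 37.8 CPM at E10.5, 17, 18.1 and 20.1 CPM at E12.5 and 65.7, 55.5 and 58.4 CPM at E14.5. Etv4 was at 13.1, 9.82 and 6.04 CPM at E14.5. Etv1 overlapped between E10.5 and E12.5 and was higher in every E14.5 library, while Etv5 overlapped between no stages. Spry1 was at 20.9, 21.8 and 23.4 CPM at E10.5. Spry4 was at 11.6, 9.99 and 11.6 CPM at E10.5, 22.1, 22.8 and 25.3 CPM at E12.5 and 87.7, 87 and 78.8 CPM at E14.5. Spry3 was at 3.41, 3.33 and 3.5 CPM at E10.5, 2.3, 2.12 and 2.11 CPM at E12.5 and 1.01, 0.967 and 0.942 CPM at E14.5. None of these Sprouty genes overlapped between stages. Spry2 was at 117, 113 and 105 CPM at E14.5. Dusp6 was at 93.2, 102 and 92.3 CPM at E14.5. Neither overlapped with an earlier stage. Spred1, an inhibitor of Ras-ERK signalling, was at 144, 121 and 120 CPM at E10.5, 165, 236 and 196 CPM at E12.5 and 360, 415 and 336 CPM at E14.5. Spred2 was at 21.6, 23.5 and 27.4 CPM at E10.5, 32, 23.8 and 29.9 CPM at E12.5 and 40.9, 37.3 and 37.8 CPM at E14.5. Spred1 overlapped between no stages, and Spred2 overlapped between E10.5 and E12.5. Spred3 was at 16.2, 20.3 and 21.1 CPM at E10.5, 18, 20.1 and 24.1 CPM at E12.5 and 11.2, 11.8 and 12.525 CPM at E14.5. Its E14.5 libraries lay below all the others.

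Among the receptors, Fgfr1 and Fgfr3 overlapped between E10.5 and E12.5. Fgfr1 was at 319, 354 and 359 CPM at E10.5, 383, 334 and 359 CPM at E12.5 and 565, 515 and 586 CPM at E14.5. Fgfr2 was at 187, 189 and 186 CPM at E10.5, 155, 139 and 147 CPM at E12.5 and 180, 175 and 174 CPM at E14.5. Fgfr3 was at 5.92, 4.12 and 5.46 CPM at E10.5, 4.27, 3.27 and 3.3 CPM at E12.5 and 3.11, 2.46 and 3.02 CPM at E14.5. Fgfr2 was highest at E10.5 and lowest at E12.5 without overlap, and the E14.5 libraries of Fgfr3 lay below the others. Fgfr4 was at 0.435, 0.377 and 0.49 CPM at E10.5, 0.706, 0.882 and 0.986 CPM at E12.5 and 1.61, 2.29 and 1.99 CPM at E14.5. Fgfrl1 was at 101, 99.1 and 104 CPM at E10.5, 61.2, 55.6 and 49.2 CPM at E12.5 and 39.6, 32.9 and 36.5 CPM at E14.5. Fgfr4 rose and Fgfrl1 fell from stage to stage with no overlap.

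**Figure D3:**
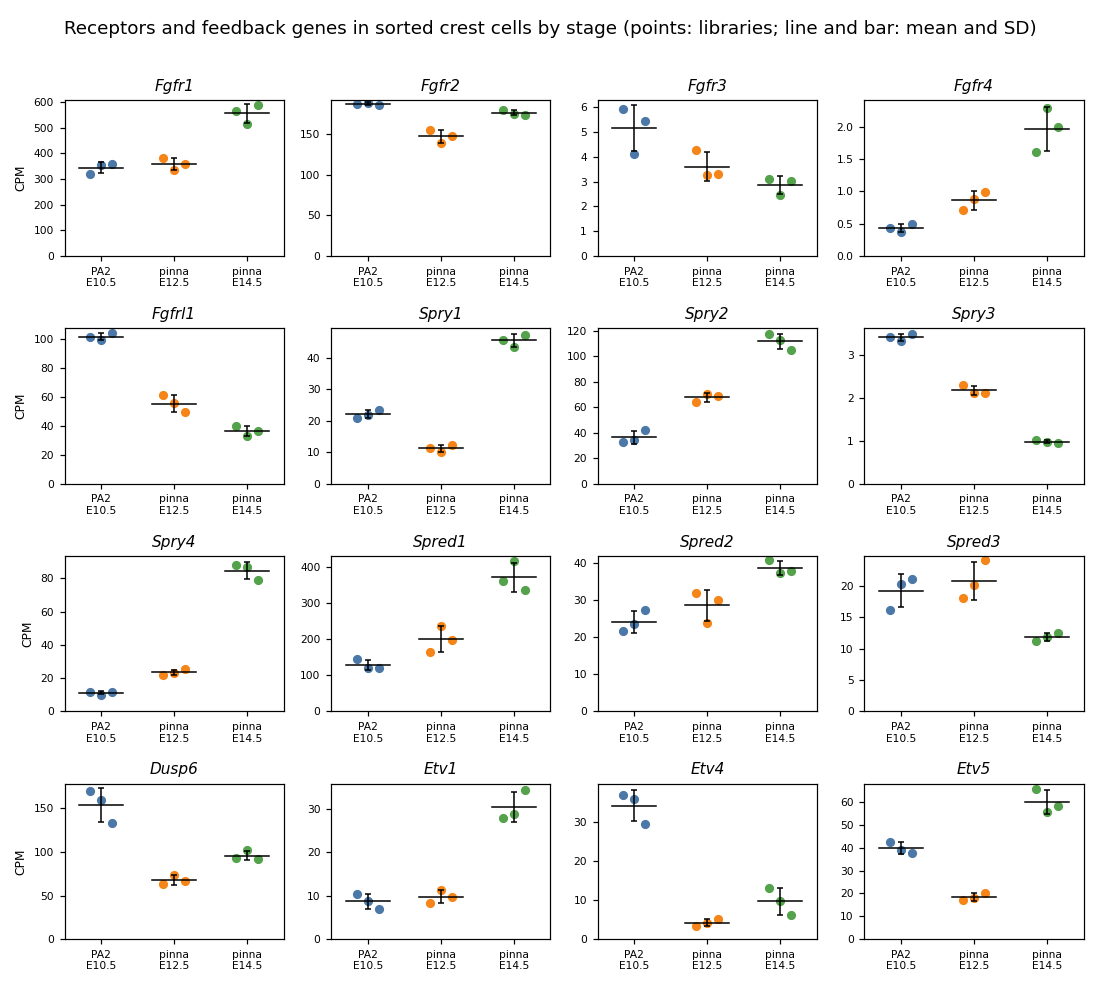
Expression of the 5 receptor genes and 11 feedback genes in sorted crest cells by stage, in CPM on a linear axis from 0, with each point 1 library and the line and bar the mean and SD of 3 libraries. Dusp6, Etv4, Etv5 and Spry1 dip at E12.5, Spry2, Spry4 and Spred1 rise at each step, and Spry3 and Fgfrl1 fall at each step.

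Markers of other cell types also moved with stage in the sorted cells. Melanocyte markers (4 genes) summed to 5.89 to 7.75 CPM at E10.5, 29.1 to 41.3 at E12.5 and 324 to 368 at E14.5, endothelial markers (6 genes) to 7.03 to 9.74, 19.3 to 27.9 and 110 to 173 CPM, and glial markers (5 genes) to 20.5 to 23.4, 21.7 to 25.6 and 84.3 to 99.8 CPM. Only a part of the last 2 lists reached 1 CPM. Of the 6 endothelial markers 2 to 4 did so per library at E10.5, 1 to 5 at E12.5 and 3 to 5 at E14.5. Of the 5 glial markers 3 did so at E10.5 and E12.5 and 3 or 4 at E14.5, and Foxd3 had 0 counts throughout. Epithelial markers summed to 8.29 to 9.92 CPM at E12.5 and 27.1 to 45.7 at E14.5, when 5 or 6 of the 8 were above 1 CPM. Cartilage markers (4 genes) fell from 1144 to 1213 CPM to 230 to 278 CPM, and Matn1 was at 0 counts in at least 1 library of each stage. Crest mesenchyme markers (6 genes) went from 1557 to 1801 CPM to 3592 to 3988 CPM. Their part in the FGF changes was not tested, and fewer cells of a type and less RNA per cell cannot be told apart in such libraries.

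Many of the FGF ligands and response genes, though not Dusp6, Fgf7 or Fgf10, were higher in PA3 than in PA2 at E10.5. In wild-type arches 16 of the 32 members tested were higher in PA3 and 2 lower, where 19.1% and 17.4% of all 14383 genes were. All 7 members called with a log2 fold change of 1 or more in size were higher in PA3 (7.39% of all genes). The median log2 fold change was 0.55 over the members and 0.00 over all genes. In HIRE1del/del arches 15 were higher and 2 lower (18.7% and 14.7% of all genes), in a comparison that shares no library with the wild-type one. These counts come from fits that did not pair PA2 with PA3 libraries. An embryo pool shared by PA2 and PA3 libraries of the same genotype and replicate number was inferred from the counts. The labels do not state it, and fits with this pool as a block are given as alternatives.

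Of the members called in wild-type arches, Fgf4, Fgf18 and Fgf12 had the highest fold changes. All of them were under 1 CPM in every PA2 library of both genotypes and passed the filter through PA3 alone. They were thus bound to lie higher in PA3, and this order is a description. Fgf8 had 4.1, 3.09 and 2.43 CPM in PA2 and 10.1, 6 and 6.98 CPM in PA3, 2.41-fold higher (log2 fold change 1.27, SE 0.32, adjusted p = 0.00792). Fgf3 had 1.43, 1.37 and 1.26 CPM against 6.5, 6.11 and 4.28 CPM, 4.15-fold higher (adjusted p = 0.000691). Every PA3 library was above every PA2 library for both. Fgf4 was 5.38-fold higher (0.00855), Fgf18 4.87-fold (0.00132), Fgf1 2.95-fold (0.00107), Fgf5 2.6-fold (0.00321), Fgf15 1.8-fold (0.00657) and Fgf9 1.6-fold (0.00227). The intracellular Fgf12 was 4.71-fold higher (0.000215), from 6 to 17 counts in PA2 to 45 to 66 in PA3. Without PA2 WT replicate 1 the log2 fold change of Fgf4 moved from 2.43 to 3.29 and that of Fgf18 from 2.28 to 2.96, and Fgf18 was below the filter without PA3 WT replicate 1 or 3.

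The mesenchymal ligands did not pass the test. Fgf10 was at 10.4 to 11.8 CPM in PA2 and 8.65 to 11.1 CPM in PA3 (log2 fold change -0.13, 95% interval -0.37 to 0.11, adjusted p = 0.38), and Fgf7 at 0.893 to 2.13 and 0.643 to 0.965 CPM (adjusted p = 0.125). Fgf17, of the Fgf8 subfamily, was called with the embryo pool as a block (log2 fold change 0.88, adjusted p = 0.043, against 0.114 without the block), and then lost without replicate 2 (0.124) or 3 (0.284) of the wild type and without the second HIRE1del/del pool (0.05).

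Of the 11 feedback genes, 7 were higher in wild-type PA3 (19.1% of all genes). Etv5 was at 61.5, 56.3 and 49.9 CPM in PA2 and 121, 92.4 and 88 CPM in PA3, 1.8-fold higher (adjusted p = 0.000599). Spry1 was 1.66-fold higher (0.00844), Spry3 1.57-fold (0.0126), Etv1 1.52-fold (0.00543), Spry2 1.48-fold (0.00472), Etv4 1.45-fold (0.00897) and Spred3 1.42-fold (0.000725). The call of Spry3 was lost without PA3 WT replicate 2. Dusp6 differed in direction, with 235, 186 and 189 CPM in PA2 and 170, 144 and 157 CPM in PA3. It missed the threshold (log2 fold change -0.37, SE 0.14, adjusted p = 0.0536) and was called lower in PA3 with the embryo pool as a block (-0.37, adjusted p = 0.000528). In all, 13 of 23 alternatives called it. They included DESeq2 size factors, no filter, the contrast's libraries alone, the replicate block and every blocked fit without a pool. The DESeq2 test, limma-voom and the fits that left out 1 library did not call it. Spred1, Spred2 and Spry4 did not pass (adjusted p = 0.354, 0.575 and 0.258).

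The main receptors were lower in PA3. Fgfr2 was at 181, 194 and 215 CPM in wild-type PA2 and 112, 141 and 152 CPM in PA3, 1.46-fold lower (adjusted p = 0.000745). Fgfr1 was 1.17-fold lower (adjusted p = 0.0151), a call lost without PA2 WT replicate 2 or 3 or PA3 WT replicate 1 or 2. Fgfrl1 did not pass (log2 fold change 0.01, 95% interval -0.16 to 0.19). The arches also differed in their marker sums in wild type. Epithelial markers were at 258 to 288 CPM in PA2 and 544 to 698 in PA3, erythroid markers (6 genes) at 1452 to 2226 and 11670 to 22400, neuronal markers (7 genes) at 25.2 to 28.7 and 80.3 to 138, and crest mesenchyme markers at 974 to 1087 and 635 to 800 CPM. All 8 epithelial markers were at 1 CPM or more in every PA2 library and 7 in every PA3 library, so that the sum does not stand for each marker. The part of these cell types in the differences between arches was not tested.

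In HIRE1del/del arches the values were side by side with these. Fgf15 was 5.12-fold higher in PA3 (log2 fold change 2.36, SE 0.23, adjusted p = 6.06e-06), Fgf3 6.7-fold (0.000138), Fgf4 6.7-fold (0.00556), Fgf18 4.06-fold (0.00508), Fgf8 3.95-fold (0.000532), Fgf1 3.55-fold (0.000451), Fgf20 2.3-fold (0.00365), Fgf12 2.2-fold (0.0313) and Fgf9 1.88-fold (0.000405). Etv5 was 1.89-fold higher (0.000355), Spry1 1.89-fold (0.00239), Etv4 1.67-fold (0.00141), Spry2 1.63-fold (0.00141), Etv1 1.38-fold (0.0255) and Spred3 1.23-fold (0.0228). Fgfr1 was 1.31-fold lower (0.000498) and Fgfr2 1.39-fold lower (0.00209). Fgf5 (adjusted p = 0.0991) and Spry3 (0.52) did not pass. Dusp6 was called lower (log2 fold change -0.19, adjusted p = 0.026) and Spred1 higher (0.14, adjusted p = 0.0306) with the embryo pool as a block, against 0.284 and 0.14 without it. The blocked call of Dusp6 did not hold without HIRE1del replicate 1 (0.268) or 2 (0.0897), nor that of Spred1 without HIRE1del replicate 1 (0.0582), 2 (0.189) or 3 (0.106). Epithelial markers summed to 240 to 269 CPM in HIRE1del/del PA2 and 441 to 603 in PA3, and erythroid markers to 1482 to 3022 and 13390 to 22890, and their part was not tested. In these PA2 libraries all 8 epithelial markers were at 1 CPM or more, against 6 or 7 in PA3. Without PA2 HIRE1del replicate 2 the log2 fold change of Fgf4 moved from 2.74 to 3.37. The call of Fgf12 was lost in 5 of the 6 fits that left out a library, all but the one without PA3 HIRE1del replicate 1, and with limma-voom. The calls of Spred3 and Etv1 were each lost in 3 of them (Spred3 without PA2 HIRE1del replicate 1, replicate 3 or replicate 1 of PA3, Etv1 without PA2 HIRE1del replicate 3 and without replicates 1 or 2 of PA3).

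By library, each ligand was apart between the arches in the genotypes in which it was called. Fgf4 was at 0.968, 0.316 and 0.215 CPM in wild-type PA2 and 4.25, 1.79 and 1.87 CPM in wild-type PA3, and 0.413, 0.701 and 0.111 CPM in HIRE1del/del PA2 and 3.48, 3.6 and 1.15 CPM in HIRE1del/del PA3. Fgf18 was at 0.348, 0.14 and 0.0924 CPM in wild-type PA2 and 0.995, 0.75 and 1.03 CPM in wild-type PA3, and 0.0752, 0.195 and 0.222 CPM in HIRE1del/del PA2 and 0.748, 0.699 and 0.591 CPM in HIRE1del/del PA3. Fgf1 was at 2.09, 1.09 and 2.12 CPM in wild-type PA2 and 6.58, 4.64 and 4.5 CPM in wild-type PA3, and 1.77, 1.79 and 0.961 CPM in HIRE1del/del PA2 and 6.77, 4.83 and 4.48 CPM in HIRE1del/del PA3. For Fgf4 the first wild-type library was the highest of its group in both arches. Fgf9 was at 5.15, 5.23 and 5.05 CPM in wild-type PA2 and 8.91, 7.18 and 8.62 CPM in wild-type PA3, and 3.95, 3.47 and 4.1 CPM in HIRE1del/del PA2 and 6.32, 8.57 and 6.74 CPM in HIRE1del/del PA3. Fgf12 was at 0.232, 0.456 and 0.523 CPM in wild-type PA2 and 2.07, 2.36 and 1.45 CPM in wild-type PA3, and 0.376, 0.273 and 0.406 CPM in HIRE1del/del PA2 and 0.561, 0.839 and 0.939 CPM in HIRE1del/del PA3. Fgf3 was at 1.05, 0.896 and 0.591 CPM in HIRE1del/del PA2 and 6.36, 8.18 and 2.54 CPM in HIRE1del/del PA3. The third HIRE1del/del PA3 library was the lowest of its group for Fgf3, Fgf4 and Fgf8. Fgf8 was at 3.42, 3.12 and 1.48 CPM in HIRE1del/del PA2 and 14.2, 10.525 and 6.95 CPM in HIRE1del/del PA3. Fgf5 was at 1.08, 0.947 and 1.14 CPM in wild-type PA2 and 1.84, 3.18 and 3.22 CPM in wild-type PA3, and 0.789, 0.74 and 0.739 CPM in HIRE1del/del PA2 and 0.898, 1.01 and 1.91 CPM in HIRE1del/del PA3. Fgf20 was at 1.24, 1.09 and 2 CPM in wild-type PA2 and 2.14, 1.75 and 2.32 CPM in wild-type PA3, and 1.47, 1.32 and 1.63 CPM in HIRE1del/del PA2 and 3.97, 3.85 and 2.4 CPM in HIRE1del/del PA3. Fgf20 overlapped between the arches in wild type and not in HIRE1del/del.

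For the feedback genes and receptors called, the arches overlapped in 1 case, Spry3 in HIRE1del/del. Etv5 was at 67.2, 60.1 and 49.7 CPM in HIRE1del/del PA2 and 125, 119 and 91.6 CPM in HIRE1del/del PA3. Etv4 was at 38.9, 36.2 and 33.9 CPM in wild-type PA2 and 61.5, 50.1 and 46.8 CPM in wild-type PA3, and 35.1, 37.3 and 28.7 CPM in HIRE1del/del PA2 and 66.9, 57.1 and 45 CPM in HIRE1del/del PA3. Etv1 was at 14.6, 11.6 and 11.6 CPM in wild-type PA2 and 22.8, 17.9 and 16.7 CPM in wild-type PA3, and 14.54, 14.2 and 10.8 CPM in HIRE1del/del PA2 and 19.5, 18.1 and 16.8 CPM in HIRE1del/del PA3. For these ETS factors every PA3 library lay above the PA2 libraries of its genotype. Spry1 was at 38.8, 32.8 and 28 CPM in wild-type PA2 and 70.3, 49.1 and 46.1 CPM in wild-type PA3, and 35.7, 33.6 and 27.2 CPM in HIRE1del/del PA2 and 68.6, 68.6 and 45 CPM in HIRE1del/del PA3. Spry2 was at 51.3, 41.6 and 43 CPM in wild-type PA2 and 74.9, 65.5 and 61 CPM in wild-type PA3, and 44.5, 43.8 and 31.8 CPM in HIRE1del/del PA2 and 68.8, 71 and 55.5 CPM in HIRE1del/del PA3. Spry3 was at 3.25, 3.02 and 3.23 CPM in wild-type PA2 and 4.63, 5.43 and 4.83 CPM in wild-type PA3, and 2.29, 2.84 and 3.36 CPM in HIRE1del/del PA2 and 2.13, 3.08 and 2.33 CPM in HIRE1del/del PA3. Spry3 was higher in wild-type PA3 than in the other 3 groups. Spred3 was at 12.4, 13.1 and 13.1 CPM in wild-type PA2 and 20.3, 17.7 and 17.1 CPM in wild-type PA3, and 12.48, 13.6 and 12.9 CPM in HIRE1del/del PA2 and 17.3, 15.3 and 15.3 CPM in HIRE1del/del PA3. Fgfr1 was at 178, 196 and 194 CPM in wild-type PA2 and 158, 155 and 174 CPM in wild-type PA3, and 199, 180 and 203 CPM in HIRE1del/del PA2 and 146, 142 and 157 CPM in HIRE1del/del PA3. Fgfr2 was at 172, 181 and 190 CPM in HIRE1del/del PA2 and 123, 129 and 139 CPM in HIRE1del/del PA3. Both receptors were lower in every PA3 library than in the PA2 libraries of the same genotype.

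**Figure D4:**
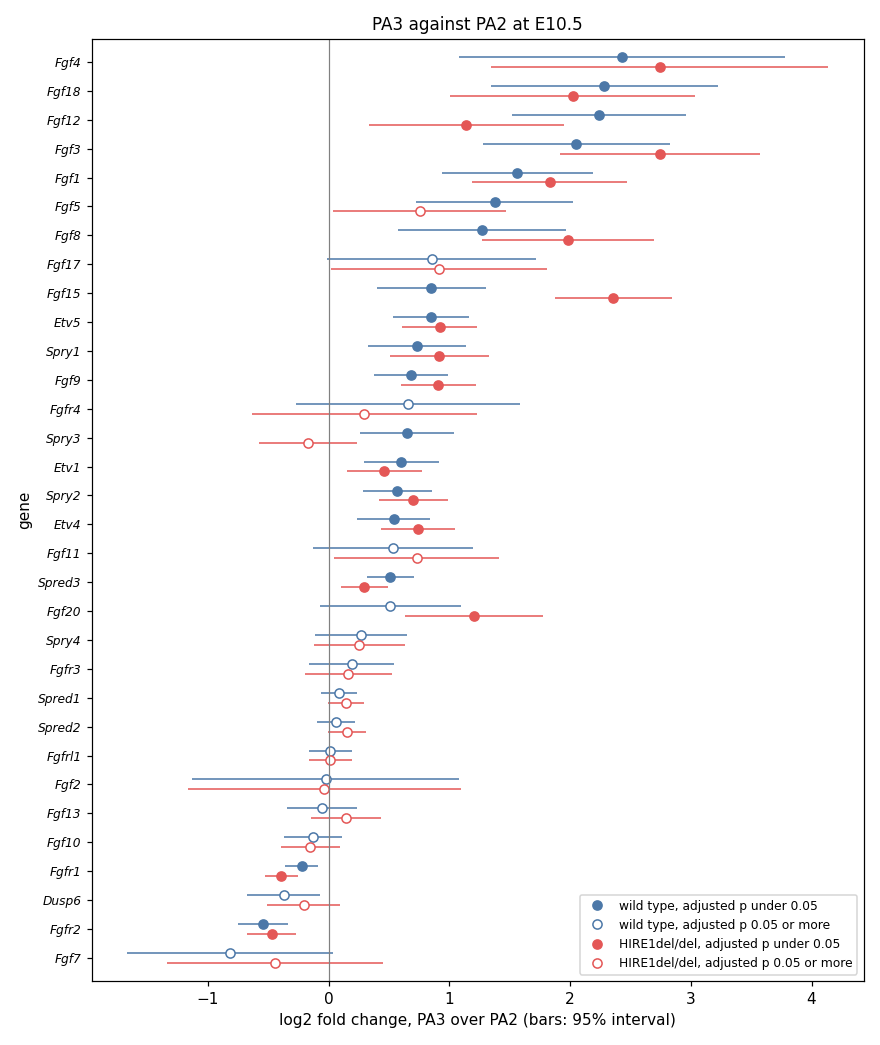
Log2 fold change of PA3 over PA2 at E10.5 for the 32 members tested, with 95% intervals, in wild-type arches (upper point of each pair) and HIRE1del/del arches (lower point), filled where the adjusted p was under 0.05. Most ligands and feedback genes lie to the right, and Fgfr1 and Fgfr2 to the left in both genotypes.

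No FGF gene was called between genotypes in either arch. In PA2 edgeR called 0 of the 32 members tested, where it called 0.438% of all genes, and in PA3 0, where it called 0.216%. In PA2 2 members had an unadjusted p under 0.05 and DESeq2 called 1 (Fgf15), limma-voom 0. In PA3 5 members had an unadjusted p under 0.05, and DESeq2 and limma-voom each called 1 (Spry3). The median log2 fold change was -0.13 over the members and -0.01 over all genes in PA2, and -0.05 and 0.00 in PA3.

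The intervals of the response genes give the sizes of change the data allow. For Dusp6 in PA2 the values were 235, 186 and 189 CPM in wild type and 231, 220 and 154 CPM in HIRE1del/del (log2 fold change -0.01, 95% interval -0.31 to 0.29). The interval was -0.24 to 0.39 for Etv5, -0.41 to 0.20 for Etv4, -0.46 to 0.37 for Spry1 and -0.47 to 0.11 for Spry2. For Fgfr1 it was -0.10 to 0.17 and for Fgfr2 -0.32 to 0.09. Among the ligands, Fgf8 was at 2.43 to 4.1 CPM in wild-type and 1.48 to 3.42 CPM in HIRE1del/del PA2 (log2 fold change -0.26, SE 0.34, adjusted p = 0.885).

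Fgf15 came closest to a call in PA2. It had 140, 139 and 168 counts in wild type and 75, 55 and 62 counts in HIRE1del/del, and the groups did not overlap (5.16 ± 0.273 against 2.42 ± 0.355 CPM, SD, n = 3). The log2 fold change was -1.09 (SE 0.23, adjusted p = 0.0701). In PA3 the same gene was at 12.1, 8.54 and 7.37 CPM in wild type and 16.3, 11.2 and 9.77 CPM in HIRE1del/del, with overlapping groups (log2 fold change 0.42, SE 0.20, adjusted p = 0.539). Fgf9 was at 5.05 to 5.23 CPM in wild-type and 3.47 to 4.1 CPM in HIRE1del/del PA2 (log2 fold change -0.42, SE 0.15, adjusted p = 0.415). Neuronal markers summed to 25.2 to 28.7 CPM in wild-type and 15.4 to 21.8 CPM in HIRE1del/del PA2, glial markers to 44.2 to 49.5 and 33 to 41.2 CPM, and muscle markers (5 genes) to 25.5 to 26.8 and 21.8 to 23.8 CPM. Cartilage markers were higher in HIRE1del/del, at 784 to 899 and 967 to 1051 CPM. The sums of epithelium, crest mesenchyme, endothelium, erythroid cells, macrophages and melanocytes overlapped. Their part in these values was not tested.

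In PA3 the nearest was Spry3, the lowest expressed Sprouty, with 121, 152 and 150 counts in wild type and 57, 88 and 67 counts in HIRE1del/del. The groups did not overlap (4.96 ± 0.418 against 2.51 ± 0.498 CPM), and the log2 fold change was -0.98 (SE 0.18, adjusted p = 0.0519). In PA2 Spry3 was at 3.02 to 3.25 CPM and 2.29 to 3.36 CPM (adjusted p = 0.866). Fgf12 went from 1.45 to 2.36 CPM to 0.561 to 0.939 CPM in PA3 (log2 fold change -1.31, SE 0.31, adjusted p = 0.176), Fgf5 from 1.84 to 3.22 CPM to 0.898 to 1.91 CPM (-1.10, SE 0.30, adjusted p = 0.259) and Fgf20 from 1.75 to 2.32 CPM to 2.4 to 3.97 CPM (0.71, SE 0.26, adjusted p = 0.401). Glial markers summed to 98.8 to 133 CPM in wild-type and 88.6 to 97.8 CPM in HIRE1del/del PA3, and the other marker sums overlapped. The part of these cells was not tested.

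The test of whether the effect of the deletion differed between the arches called 0 members (edgeR), where it called 0.0487% of all genes. It had an unadjusted p under 0.05 for 2 members, DESeq2 called 1 and limma-voom 0. Fgf15 differed most among the members tested, by -1.51 on the log2 scale between the effect in PA2 and that in PA3 (SE 0.31, adjusted p = 0.352). With the inferred embryo pool as a block the difference was -1.52 (adjusted p = 0.0156). Spry3 differed by 0.82 (SE 0.26, adjusted p = 0.887).

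**Figure D5:**
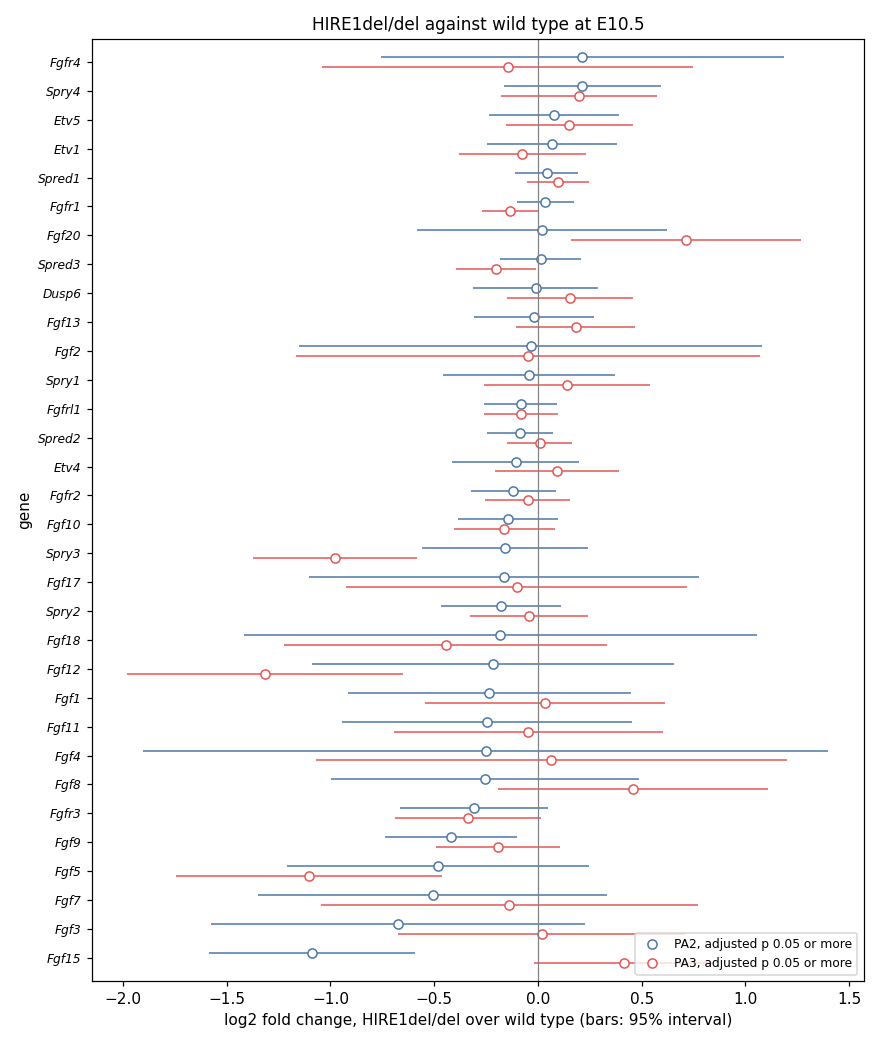
Log2 fold change of HIRE1del/del over wild type at E10.5 for the 32 members tested, with 95% intervals, in PA2 (upper point of each pair) and PA3 (lower point); open points mark an adjusted p of 0.05 or more. No point is filled, Fgf15 lies lowest in PA2 at -1.09, and Fgf12, Fgf5 and Spry3 lie lowest in PA3.

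Members that did not pass the filter had few counts. In the genotype table Fgf6, Fgf14, Fgf16, Fgf21 and Fgf23 had at most 13 counts in any library, and Fgf22, which overlaps Rnf126 on the opposite strand, at most 32. In the stage table Fgf4, Fgf6, Fgf8, Fgf20, Fgf22, Fgf23 and Fgf16 had at most 16 counts in any library and Fgf17 at most 39. Fgf1 had 5, 2 and 1 counts at E10.5, 2, 5 and 6 at E12.5 and 37, 46 and 47 at E14.5.

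Other genes of the pathway were listed by role (coreceptors and receptor modulators, heparan sulfate enzymes, adaptors, the Ras-ERK cascade and other ERK phosphatases). Of 48 tested in the stage table, 19 rose and 13 fell from E10.5 to E12.5, 18 and 15 from E12.5 to E14.5, and 23 and 18 from E10.5 to E14.5. As shares of the list these are 39.6% and 27.1%, 37.5% and 31.2%, and 47.9% and 37.5%, against 35% and 33.7%, 32.6% and 33.1%, and 42% and 40% of all genes. Flrt1, a membrane protein that binds FGF receptors, rose from 1.17 to 9.83 and then to 51.9 CPM (group means), 8.37-fold (adjusted p = 2.94e-08) and 5.28-fold (2.23e-08). Dusp9, another ERK phosphatase, fell from 204 to 26 and then to 9.35 CPM, 7.83-fold (7.33e-09) and 2.78-fold lower (2.07e-06). The heparan sulfate proteoglycan Sdc4 rose 3.65-fold and then 2.46-fold, Gpc4 rose 2.54-fold and the sulfatase Sulf1 2.36-fold at the first step, and Mapk3, which encodes ERK1, rose 2.43-fold at the later one (all with adjusted p of 1.18e-05 or less). Hs6st3, a heparan 6-O-sulfotransferase, rose 6.46-fold at the first step (9.89e-05) from a low level, and Dusp5 fell 2.45-fold at the later one (0.00421). Fgfbp1, a carrier that releases FGFs from the matrix, had a mean of 1.27 CPM at E14.5 and of 0.0248 CPM at E12.5 (adjusted p = 7.62e-05). It passed the filter through E14.5 alone and was thus bound to lie higher there.

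Of 49 tested in the genotype table, 12 were higher and 10 lower in wild-type PA3 than PA2, and 8 and 13 in HIRE1del/del. These are 24.5% and 20.4%, and 16.3% and 26.5% of the list, against 19.1% and 17.4%, and 18.7% and 14.7% of all genes. The 3 called with a log2 fold change of 1 or more in size were Hs6st3 (log2 fold change 3.88 in wild type and 2.25 in HIRE1del/del), Flrt1 (2.56 and 1.67) and Sulf1 (1.17 and 1.25), all higher in PA3. Hs6st3 averaged 0.159 CPM in wild-type and 0.265 CPM in HIRE1del/del PA2 and passed the filter through PA3 alone. It was thus bound to lie higher there. Between genotypes 1 gene was called in each arch, 2.04% of the list, against 0.438% of all genes in PA2 and 0.216% in PA3. Flrt2, a relative of Flrt1, was higher in HIRE1del/del PA2 (171 against 110 CPM, log2 fold change 0.63, SE 0.12, adjusted p = 0.0294), a call lost in 5 of the 6 fits that left out a library, all but the one without PA2 HIRE1del replicate 1. Flrt1 was lower in HIRE1del/del PA3 (7.04 against 14.8 CPM, log2 fold change -1.07, SE 0.15, adjusted p = 0.00828), a call lost without PA3 HIRE1del replicate 2 or when PA3 was fitted alone.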

How the data were processed

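The 2 count tables analysed were deposited by the authors as raw counts per gene: whole alignments over the exons of UCSC known genes, made with QuasR and spliced alignment to GRCm38 and counted in the orientation opposite to the gene, without normalization. Reads of 50 bases were single-end in the stage series and paired-end in the genotype series, and the libraries are described as unstranded, so that reads of overlapping antisense genes may not be separable. The tables held 18 rows with an Entrez identifier and no symbol, and 0 columns were unused. Floors of 3 counts and the 95% counting intervals of summed-count ratios cover counting error only. The 95% intervals of log2 fold changes and the p-values come from the edgeR fit, which takes in the spread between libraries.

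Genes reaching 1 CPM in 2 or more libraries were scaled by TMM and fitted with 1 mean per group and table (R 4.3.3, edgeR 4.0.16 quasi-likelihood test, two-sided, Benjamini-Hochberg adjustment). DESeq2 1.42.0 and limma 3.58.1 (voom) were alternatives. RPKM used the exonic width in the tables. The model was tested on simulated data. All 38 members were named, with library values for those called and ranges for the rest, and other pathway genes if called between genotypes, or with a log2 fold change of 1 or more in size between stages or arches (up to 6 per comparison). The members and lists were chosen with earlier results of these data known. Libraries of PA2 and PA3 with the same genotype and replicate number deviated together (r = 0.382, 0.23 and 0.248 in wild type, 0.213, 0.284 and 0.342 in HIRE1del/del), and were taken to share an embryo pool, which the labels do not state. Positions came from GENCODE M21 and upstream windows from RefSeq. Alternatives were other scalings, filters, tests and thresholds, the contrast's libraries alone, blocks and leaving out each library. Blocked fits without both arches of 1 pool were added after seeing the data.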

Additional observations from a re-analysis of the deposited data

Results flagged for a closer look

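The effect of the HIRE1 deletion on Fgf15 differed between the arches when an inferred embryo pool was a block, but not in the main fit. It was also called with DESeq2 and with the replicate block. The inferred pool joins PA2 and PA3 libraries of the same genotype and replicate number. It was inferred from correlated deviations in these same counts, and the labels do not state it. The effect in PA2 minus that in PA3 was -1.52 on the log2 scale (adjusted p = 0.0156), with counts in all 3 HIRE1del/del libraries below all 3 wild-type libraries in PA2 and overlapping groups in PA3. Without the block it was -1.51 (adjusted p = 0.352). When both arches of 1 pool were left out of the blocked fit, the difference ranged from -1.69 to -1.35. It passed the threshold without WT replicate 1 (adjusted p = 0.0239) and without HIRE1del replicate 3 (0.0155). It did not pass without the second or the third WT pool (0.0752 and 0.124), nor without the first or the second HIRE1del pool (0.056 and 0.0837). These fits were chosen after seeing the data. The cause was not tested.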

How the results depend on the processing

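No member reversed a called direction under any alternative. Of the members called, 27 of 27 (E14.5 against E10.5), 24 of 25 (E14.5 against E12.5), 20 of 22 (E12.5 against E10.5), 16 of 18 (PA3 against PA2, wild type) and 13 of 17 (HIRE1del/del) were called under every alternative in which they passed the filter, blocked fits without a pool included.

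Requiring 1 CPM in every library, which tests fewer genes, left 13, 15 and 16 members called in these stage comparisons taken in time order (E12.5 against E10.5, E14.5 against E12.5, E14.5 against E10.5), and 6, 7 and 9 with a log2 fold change of 1 or more in size. For the arches the latter count became 1 in wild type (from 7) and 3 in HIRE1del/del (from 8). With no filter 25, 27 and 32 members were called by stage.

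The count of 0 members in PA2 became 1 (Fgf15) with no filter, with DESeq2, in the contrast's libraries alone, at an adjusted p under 0.1 and with the replicate block. In PA3 it became 1 (Spry3) with library totals only, no filter, 1 CPM in every library, DESeq2, limma-voom, an adjusted p under 0.1 and the replicate block. For the difference between arches it became 1 (Fgf15) with DESeq2, the replicate block and the embryo pool block, and with the latter without WT pool 1 or HIRE1del pool 3. Replicate numbers did not pair wild-type with HIRE1del/del libraries (r = -0.136 to 0.236 within an arch) or stages (-0.312 to 0.202), and the replicate block moved the stage counts from 22, 25 and 27 to 23, 25 and 27.

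Leaving out 1 library each, the counts were 0 for both genotype comparisons and the difference, 16 to 18 and 15 to 16 for the arches (6 to 7 and 7 to 9 with the fold), and 20 to 23, 24 to 25 and 26 to 27 by stage (12 to 14, 15 to 17 and 19 to 20 with the fold). Over all genes, the 63 called in PA2 became 162 with DESeq2, 103 at an adjusted p under 0.1 and 105 with the replicate block; the 31 in PA3 became 94 with DESeq2 and 54 with the block; the 7 that differed between arches became 29 with DESeq2, 12 with the replicate block and 26 with the pool block. The cause was not tested. Depth limits Fgf2, Fgf5, Fgf14, Fgf15 and Fgf21, which have groups with few or 0 counts.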
